A study of Mus musculus with 36 samples.

Results

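The genes described here encode the nuclear-encoded subunits of the mitochondrial respiratory chain and ATP synthase, in RNA sequencing data from the mouse cochlea, the coiled part of the inner ear that detects sound. Members were taken by symbol as protein-coding genes of complexes I to V with a mean count over the 36 libraries of at least 10. Of the 39017 genes in the deposited table, 86 protein-coding genes carried such a symbol and 84 reached the minimum: 38 of complex I, 4 of complex II, 9 of complex III, 16 of complex IV and 17 of complex V. All 84 passed the filter on low counts that was applied to the whole table and left 22556 genes. The rule used the level of a gene but neither surgery nor time. The members nearest to the minimum were Ndufa4l2, Atp5l, Cox6a2 and Cox4i2, with mean counts of 56.1, 59.4, 62.5 and 68.6, and the genes left out were Cox7b2 and Cox8c, with 2 and 0.861. A further 11 genes with such symbols are annotated as processed pseudogenes and were not taken.

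All animals were CBA/Sca mice aged 12 weeks. The groups were sham-operated mice and adrenalectomized (ADX) mice, which lack the adrenal source of glucocorticoids, each sampled at circadian times (CT) 04, 08, 12, 16, 20 and 24 with 3 libraries per status and time. The title of the series names glucocorticoid-dependent circadian genes of the cochlea as its subject. Neither lighting nor hormone replacement is described in the labels. The labels call the libraries separate samples without naming animals, and the p-values below therefore rest on the spread of these samples alone.

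Oxidative phosphorylation couples the oxidation of NADH and succinate to the synthesis of ATP. Complex I (NADH dehydrogenase) and complex II (succinate dehydrogenase) pass electrons through ubiquinone to complex III, cytochrome c carries them to complex IV (cytochrome c oxidase), and complex V (ATP synthase) uses the resulting proton gradient. Complexes I, III, IV and V combine nuclear-encoded subunits with others made from mitochondrial DNA, while complex II is wholly nuclear-encoded. In the cochlea the stria vascularis, which pumps potassium into the endolymph, is rich in mitochondria.

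Library totals lay between 18999408 and 28995197 counts. Summed markers of spiral ganglion neurons (898.3 to 1421 CPM, counts scaled to library size), marginal cells of the stria vascularis (1643 to 2467 CPM) and hair cells (140.3 to 235.5 CPM) were present in all 36 libraries. RNA of neighbouring tissue was also present. Neutrophil precursor markers summed to between 3194 and 7357 CPM. Skeletal muscle markers stood apart in ADX CT20 replicate 3, ADX CT12 replicate 1 and ADX CT16 replicate 2, and Gh, a pituitary hormone transcript, was highest in sham CT16 replicate 3 with 1179 CPM. In whole tissue, fewer cells of a type and less RNA per cell cannot be told apart.

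The 84 transcripts together made up between 7981 and 9369 CPM, or 0.8046 to 0.9273% of the counts of a library. Levels between genes are compared as CPM per kilobase of the annotated principal transcript, and on that scale they ranged from 2.403 for Ndufa4l2 to 553.4 for Atp5b, the catalytic beta subunit of ATP synthase. By complex, the median was 61.6 CPM per kilobase in complex I, 80.0 in complex II, 109.9 in complex III, 99.44 in complex IV and 121.1 in complex V. The highest member of each complex was Ndufa4 (240.6), Sdha (119.4), Uqcrh (256.6), Cox4i1 (352.7) and Atp5b. Ndufa4 carries a complex I name but its protein is now placed in cytochrome c oxidase. Below Atp5b and Cox4i1 came Atp5a1, the alpha subunit of ATP synthase, with 341.2 ± 15.8 CPM per kilobase (SD over 36 libraries), a value that overlaps the 352.7 ± 18.6 of Cox4i1 within its spread. Atp5a1, Cox4i1 and Sdha have other lengths in the deposited table (1500, 603 and 747 bases), so their order depends on the length used. The lowest members of complexes II and III were Sdhc and Uqcrq, with 27.96 and 40.8. Both have long annotated transcripts (3171 and 1521 bases), so their values per kilobase depend on the length used.

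The first comparison asked which subunits differed between ADX and sham cochleae over the mean of the 6 times. None of the 84 passed edgeR's quasi-likelihood test after Benjamini-Hochberg adjustment over all genes, where 0.718% of all genes did. Differences were small: the median log2 fold change of ADX against sham was 0.0021, 83 of the 84 values lay within 0.1 of 0 in either direction, and 47 were above 0. The median size of the change, disregarding sign, was 0.012 in the members and 0.049 over all 22556 genes. A mean of at least 10 CPM was reached by 79 of the 84 members but by 12029 of all genes. Sizes were not compared at like level. At an unadjusted p of 0.05, 1 member passed, against 15.6% of all genes. DESeq2 called 1 member.

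That member was Cox7a2l, a relative of the complex IV subunit 7a that joins complexes III and IV into supercomplexes. It lay between 57.15 and 67.16 CPM in the 18 sham libraries (median 61.89) and between 59.61 and 67.7 CPM in the 18 ADX libraries (median 64.75). The ranges overlapped widely. The log2 fold change was 0.062 ± 0.017 (SE), with an edgeR adjusted p of 0.071, and DESeq2 gave 0.058 with an adjusted p of 0.0443. With library totals in place of TMM, edgeR gave 0.075 with an adjusted p of 0.0358. The call therefore depended on the tool and on the scaling.

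The core catalytic subunits were close to equal between surgeries. Ndufv1, the NADH-binding flavoprotein of complex I, had a median of 124.3 CPM in sham and 126.6 CPM in ADX (log2 fold change 0.0077 ± 0.021). Ndufs1, the largest iron-sulfur subunit of complex I, differed by 0.0020 ± 0.019. Sdha, the flavoprotein of succinate dehydrogenase, had medians of 342.2 and 346.2 CPM, and its iron-sulfur partner Sdhb had 89.39 and 90.01 CPM (log2 fold change 0.030 ± 0.017). Cyc1, the cytochrome c1 of complex III, differed by 0.0099 ± 0.020 and the Rieske protein Uqcrfs1 by -0.0074 ± 0.020. Cox5a and Cox5b differed by -0.0011 ± 0.027 and -0.0078 ± 0.028, and Atp5a1 and Atp5b by 0.0098 ± 0.016 and -0.0057 ± 0.019. None of these differences exceeded 2 standard errors, and the median standard error over the 84 genes was 0.021 on the log2 scale. Among the 79 members with a mean of at least 10 CPM, no value lay outside -0.069 to 0.062.

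**Figure D1:**
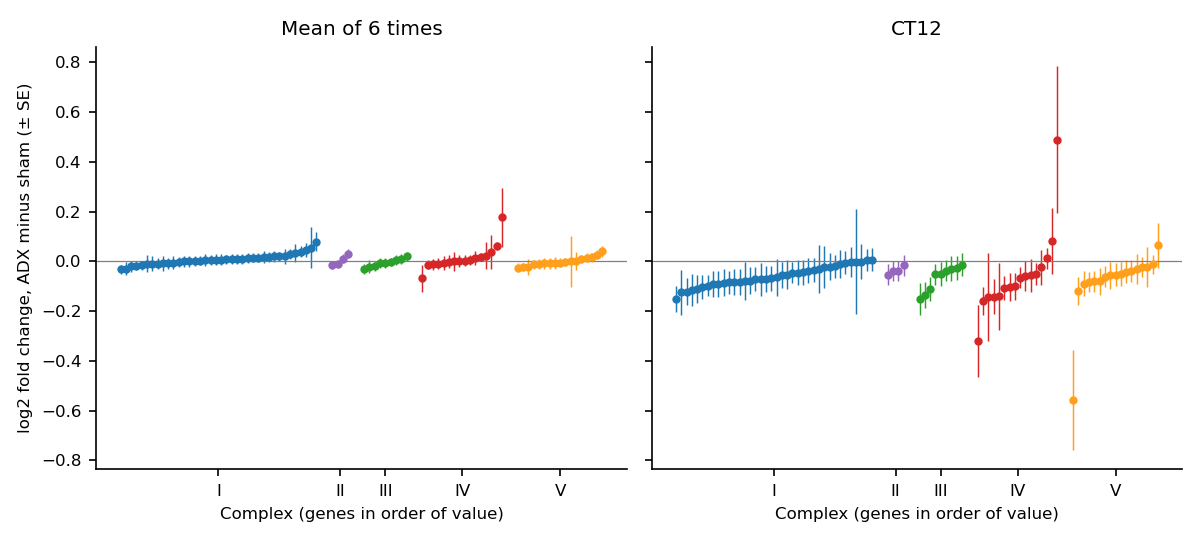
Log2 fold changes of ADX minus sham with standard errors for the 84 subunit genes, by complex and in order of value within each complex, over the mean of 6 times (left) and at CT12 (right). The left values lie close to 0 apart from Cox6a2 at 0.18, while 78 of the 84 right values lie below 0.

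The most extreme values belonged to low, tissue-restricted isoforms. Cox6a2, the form of subunit 6a found in heart and skeletal muscle, had the highest log2 fold change, 0.18 ± 0.12 (edgeR adjusted p = 0.503). In ADX it lay between 1.431 and 6.782 CPM with a median of 2.309, and in sham between 1.87 and 3.129 CPM with a median of 2.232. The upper end was set by ADX CT20 replicate 3 at 6.782 CPM, ADX CT12 replicate 1 at 4.048 CPM and ADX CT16 replicate 2 at 3.895 CPM, the 3 libraries of highest skeletal muscle score (4.669, 3.27 and 2.718, as the mean centred log2 CPM of 11 muscle genes). The lowest log2 fold change was that of Cox6b2, the form of subunit 6b best known from testis, at -0.069 ± 0.053 (edgeR adjusted p = 0.581), with medians of 17.92 CPM in sham and 17.84 CPM in ADX.

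The isoform composition of cytochrome c oxidase and of the ATP synthase c-ring differed little between surgeries. Cox4i1, the widespread form of subunit 4, made up 98.96% ± 0.17 of Cox4i transcripts per kilobase in sham and 98.93% ± 0.19 in ADX (SD, n = 18 each), the rest being Cox4i2, a form known from lung and induced by low oxygen. Cox6a2 held 1.29% ± 0.31 of Cox6a in sham and 1.49% ± 0.69 in ADX, and Cox6b2 held 12.6% ± 1.18 and 12.18% ± 1.22 of Cox6b. Within Cox7a, the heart and muscle form Cox7a1 held 11.98% ± 1.37 and 12.01% ± 1.12, and the widespread form Cox7a2 held 65.3% ± 1.6 and 64.6% ± 1.3. Cox8b, another form best known from muscle and brown fat, held 14.5% ± 1.8 of Cox8 in sham and 14.4% ± 1.2 in ADX. Ndufa4l2, the hypoxia-inducible relative of Ndufa4, held 0.97% ± 0.17 and 1.01% ± 0.17 of that pair. All of these differences were smaller than the spread between libraries.

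Atp5g1, Atp5g2 and Atp5g3 encode the same mature c-subunit behind different import signals. Per kilobase of the principal transcript, Atp5g3 held 86.5% ± 0.37 of the set in sham and 86.4% ± 0.39 in ADX. The order below it depends on the length used. With the principal transcript of 4715 bases for Atp5g1 its share over all libraries was 4.17% and that of Atp5g2 9.38%, and with the lengths in the deposited table the shares were 7.1%, 15% and, for Atp5g3, 77.9%.

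The muscle isoforms did not all follow the muscle markers. Cox6a2 was highest in ADX CT20 replicate 3, where it reached 3.696% of Cox6a per kilobase. Cox7a1 was 11.03 CPM in that library against a median of 11.68 CPM in all ADX libraries, and Cox8b was 14.44 CPM against a median of 15.95 CPM. Both were highest in sham CT12 replicate 1, at 15.98 and 20.54 CPM, where the muscle score was 0.201. Markers of slow muscle and heart summed to no more than 12.87 CPM in any library.

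**Figure D2:**
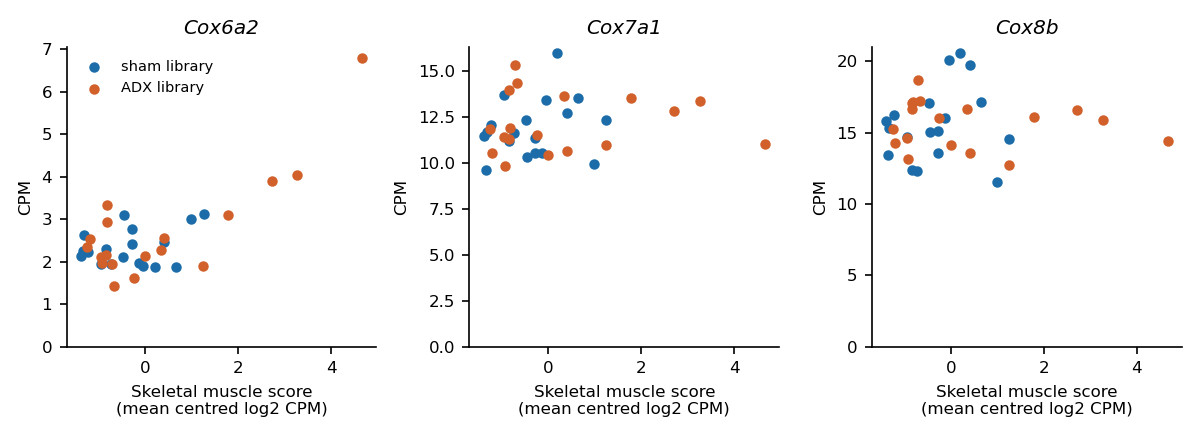
CPM of Cox6a2, Cox7a1 and Cox8b against the skeletal muscle score (mean centred log2 CPM of 11 marker genes), with 1 point per library. The 3 libraries of highest score are the 3 highest for Cox6a2, but not for Cox7a1 or Cox8b.

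Comparisons at single times called no member at any of the 6 times, where edgeR called 0% of all genes at CT04, CT08, CT12, CT16 and CT24 and 0.00443% at CT20. DESeq2 also called no member at a single time. At an unadjusted p of 0.05 the members passing were 0 at CT04, 5 at CT08, 13 at CT12, 1 at CT16, 2 at CT20 and 4 at CT24, beside 9.3, 4.28, 5.41, 7.95, 7.49 and 5.74% of all genes.

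The median difference was furthest from 0 at CT12. In ADX 78 of the 84 had a lower mean than in sham, while 48.8% of all genes did, and the median log2 fold change was -0.056 in the members and 0.0034 over all genes. The summed level of the 84 transcripts was between 8843 and 9132 CPM in the 3 sham libraries and between 8473 and 8789 CPM in the 3 ADX libraries, with no overlap. At each of the other 5 times the sums of the 2 groups overlapped. For 26 single members all 3 ADX libraries lay below all 3 sham libraries at CT12, against 5.34% of all genes, and for 0 members they all lay above, against 5.09%. All 13 members at an unadjusted p of 0.05 were lower in ADX, beside 3.12% of all genes. The smallest edgeR adjusted p at CT12 was 0.823. Members tended to move together within a library: 79 of 84 lay above their own means in ADX CT08 replicate 1 and 9 in sham CT24 replicate 2. The counts of members are therefore not counts of independent observations. At CT24 and CT08 more members lay on the other side: 64 of 84 were higher in ADX at CT24 (median log2 fold change 0.035, with 52.5% of all genes higher) and 59 at CT08 (median 0.028, with 48% of all genes higher). At CT04, CT16 and CT20 the numbers higher were 41, 52 and 45, with medians between -0.00015 and 0.021.

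The members with the smallest p at CT12 were Cox7b, Ndufs4 and Atp5l. Cox7b, a small complex IV subunit, was 120.6, 116.5 and 110.3 CPM in sham and 104.2, 108.9 and 97.76 CPM in ADX. The groups did not overlap, and the log2 fold change was -0.16 ± 0.055. Ndufs4, an accessory complex I subunit whose loss causes Leigh-like encephalopathy in mice, was 46.01, 49.77 and 47.81 CPM in sham and 42.98, 44.39 and 41.93 CPM in ADX (log2 fold change -0.15 ± 0.053). Atp5l, the g subunit of ATP synthase, had -0.56 ± 0.20 at a mean of 2.37 CPM over all libraries. It has near-identical processed copies, so its reads may have been divided between loci. In complex III, 3 small subunits had values of similar size: Uqcrb at -0.14, Uqcrq at -0.15 and Uqcr10 at -0.11. All had an edgeR adjusted p between 0.823 and 0.917.

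Other lists of energy metabolism lay on both sides of 0 at CT12. The median log2 fold change was -0.088 for 17 glycolysis genes, -0.054 for 45 assembly factors, -0.047 for 16 genes of the tricarboxylic acid cycle and -0.033 for 16 mitochondrial carrier and import genes. It was 0.035 for 14 regulators of mitochondrial biogenesis, 0.079 for 3 uncoupling genes and 0.021 for Cycs, which encodes cytochrome c. For the 13 protein-coding genes of mitochondrial DNA it was 0.111, but several of these had almost no counts. Marginal cell markers of the stria vascularis summed to 2090 ± 330 CPM in sham and 1730 ± 114 CPM in ADX at CT12 (SD, n = 3), with ranges of 1850 to 2470 and 1640 to 1860 CPM that overlapped. All 5 of these markers were lower in ADX, with a median log2 fold change of -0.302, from -0.412 for Esrrb (unadjusted p = 0.000179) to -0.235 for Slc12a2 (unadjusted p = 0.0198), and none passed the adjusted test. That median is further from 0 than the -0.056 of the members. At CT20 the marginal cell sums were 2110 ± 269 CPM in sham and 1860 ± 196 CPM in ADX, while the members' median was 0.0015. Other marker lists went both ways at CT12. Their median log2 fold changes included 0.36 for marrow B lymphocytes, 0.218 for white adipocytes and 0.195 for slow muscle and heart. Neutrophil precursors had -0.169 and hair cells -0.060. For skeletal muscle markers the sums were 130 ± 10.4 CPM (sham) and 227 ± 122 CPM (ADX). The part of these cells in the members' values was not tested. Without the 3 libraries of highest muscle score, which include ADX CT12 replicate 1, the members' median at CT12 was -0.053. Leaving out any 1 library gave medians between -0.068 and -0.046, but the number at an unadjusted p of 0.05 ran from 4 without ADX CT12 replicate 3 to 17 without ADX CT20 replicate 1, and was 6 without sham CT12 replicate 1 and 7 without ADX CT12 replicate 1.

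The second question was whether the subunits varied over the day. Each surgery was given its own 24 h cosine curve. In sham 21 of 84 members (25%) passed for a rhythm, beside 16.08% of all genes. In ADX 13 (15.5%) passed, beside 9.4% of all genes. For the rhythm shared by both surgeries 41 (48.8%) passed, beside 32.5% of all genes. High genes pass more often: among genes with a mean of at least 10 CPM, a limit chosen after seeing the data, the shares for the shared rhythm were 49.4% of 79 members and 39.5% of 12029 genes, in sham 26.6% and 22%, and in ADX 15% and 11.17%. By complex, the shared rhythm was called for 18 of 38 subunits of complex I, 4 of 4 of complex II, 4 of 9 of complex III, 8 of 16 of complex IV and 7 of 17 of complex V. The count in ADX depended on single libraries. It fell to 2 without ADX CT08 replicate 1, to 3 without ADX CT20 replicate 2, to 4 without ADX CT16 replicate 1, to 7 without replicate 3 of ADX CT08 or of ADX CT16, and to 8 without replicate 1 or 3 of ADX CT04 or replicate 1 of ADX CT20.

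The peaks fell close together, in the subjective day. Of the 41 members called for the shared rhythm, 38 had fitted peaks between 4 and 12 h of circadian time, a window that held 43.9% of all genes called (45.2% of the 84 members and 14.3% of all genes tested). All 21 called in sham peaked within the 4 h centred on CT08, where 35.1% of all genes called in sham did. These 21 were 25% of the 84 members. Of all genes tested, 8.04% were called in sham with a peak in the wider window from 4 to 12 h. Of the 13 called in ADX, 12 (14.3% of the 84) peaked between 4 and 12 h. Of all genes tested, 3.76% were called in ADX with a peak in that window. The changes were small. The median fitted peak-to-trough value of the called members was 0.14 on the log2 scale, against 0.26 for all genes called, which were not matched to the members in level. The largest value of a called member was 0.54.

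**Figure D3:**
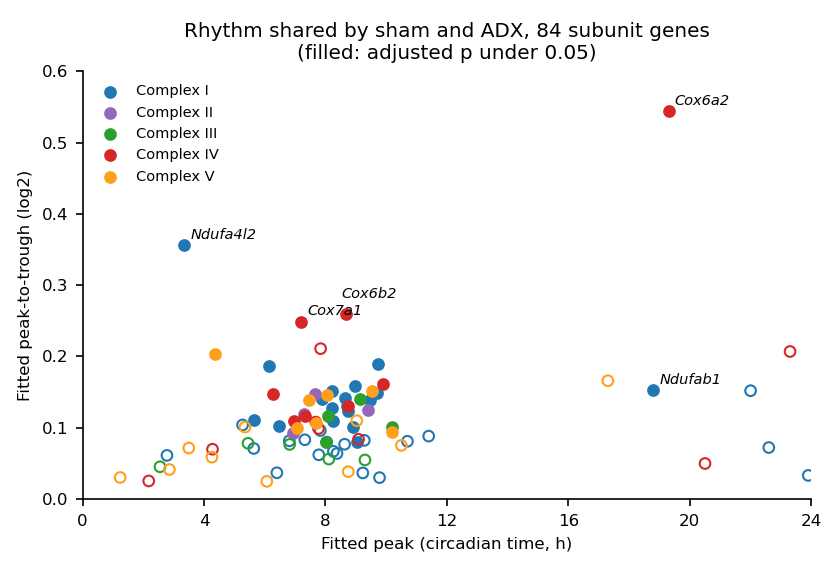
Fitted peak time (h, circadian time) against fitted peak-to-trough value (log2) of the rhythm shared by sham and ADX, with 1 point per subunit gene, coloured by complex and filled where edgeR's adjusted p was under 0.05. Most filled points lie between 4 and 12 h at values below 0.2, and Cox6a2 and Ndufab1 stand apart in the subjective night.

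Atp5a1 had the smallest p of the 84. In sham its libraries were 922.9, 885.2 and 876.1 CPM at CT12 and 817.3, 772.2 and 810.5 CPM at CT24. In ADX they were 859.7, 893.9 and 889.3 CPM at CT12 and 824.4, 813.8 and 824.9 CPM at CT24. In each surgery the 2 times did not overlap. The peak-to-trough value was 0.18 ± 0.031 with a peak at 9.39 h in sham and 0.12 ± 0.031 with a peak at 9.74 h in ADX, and the shared rhythm, of 0.15, had an edgeR adjusted p of 1.53e-05. Atp5b, its partner in the catalytic head, had a shared value of 0.094 with a peak at 10.2 h (edgeR adjusted p = 0.0201). This call was at the threshold without ADX CT08 replicate 1, with an adjusted p of 0.05. Of the c-subunit genes, Atp5g3 and Atp5g2 were called, with 0.15 at 8.06 h and 0.14 at 7.47 h, and Atp5g1 had 0.11 at 9.03 h with an adjusted p of 0.0647. Atp5s, taken by its symbol and listed by RefSeq as Dmac2l, is no structural part of ATP synthase, and it had 0.20 at 4.35 h (adjusted p = 0.00792).

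In complex I the smallest p belonged to Ndufv1 and Ndufv3, 2 subunits of the NADH-oxidizing tip of the peripheral arm, and to Ndufa9, which lies at its base near the ubiquinone site. Ndufv1 was 141.3, 136.3 and 134.3 CPM at CT12 and 119.3, 112.6 and 121.3 CPM at CT24 in sham, and 131.0, 135.8 and 134.4 against 126.7, 115.4 and 116.1 CPM in ADX. Every CT12 library was above every CT24 library of the same surgery. The fitted values were 0.24 ± 0.041 in sham and 0.15 ± 0.041 in ADX, with an edgeR adjusted p of 3.3e-05 for the shared rhythm. Ndufv3 peaked earlier, at 6.14 h with 0.19, and Ndufa9 at 8.2 h with 0.15. Among the core subunits of complex I, Ndufv1, Ndufs1 and Ndufs3 were called.

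Every subunit of complex II was called for the shared rhythm. Sdhb had 0.15 at 7.67 h (edgeR adjusted p = 0.000103), Sdhc, a membrane anchor, 0.12 at 7.3 h, Sdha 0.13 at 9.40 h and Sdhd, the other anchor, 0.092 at 6.94 h. Each of these 4 calls held in all 36 fits that left out 1 library. In complex III, Uqcrc1, a core protein on the matrix side, had 0.19 ± 0.038 in sham and 0.086 ± 0.038 in ADX. In sham it lay between 181.3 and 196.7 CPM at CT04 and between 158.4 and 172.2 CPM at CT24. The small subunit Uqcr11 had a shared value of 0.12 at 8.07 h and Cyc1 0.10 at 10.2 h, whereas Uqcrfs1 had 0.078 with an adjusted p of 0.113.

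In complex IV the smallest p belonged to Cox4i1, with 0.16 at 9.90 h (edgeR adjusted p = 7.94e-05). It was 298.6, 282.9 and 281.5 CPM in sham at CT12 and 253.7, 245.7 and 251.1 CPM at CT24. Cox7a2l followed with 0.12 at 7.32 h and Cox6b1 with 0.13 at 8.74 h. Cox6c and Cox7c were also called, and their calls were kept in 36 and 33 of the 36 fits without 1 library. Cox5a, Cox5b, Cox6a1, Cox7a2 and Cox8a, all abundant structural subunits, did not pass, with adjusted p between 0.189 and 0.903. Cox7a1 and Cox6b2 had larger values, 0.25 at 7.2 h and 0.26 at 8.67 h. Their calls were kept in 30 and 34 of the 36 fits without 1 library. Cox6b2 missed the threshold without ADX CT20 replicate 2 (adjusted p = 0.0522) or sham CT08 replicate 2 (0.0509), and Cox7a1 without ADX CT04 replicate 3, ADX CT08 replicate 1, sham CT04 replicate 3, replicate 1 or 3 of sham CT08, or sham CT16 replicate 2 (adjusted p between 0.0531 and 0.0636).

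**Figure D4:**
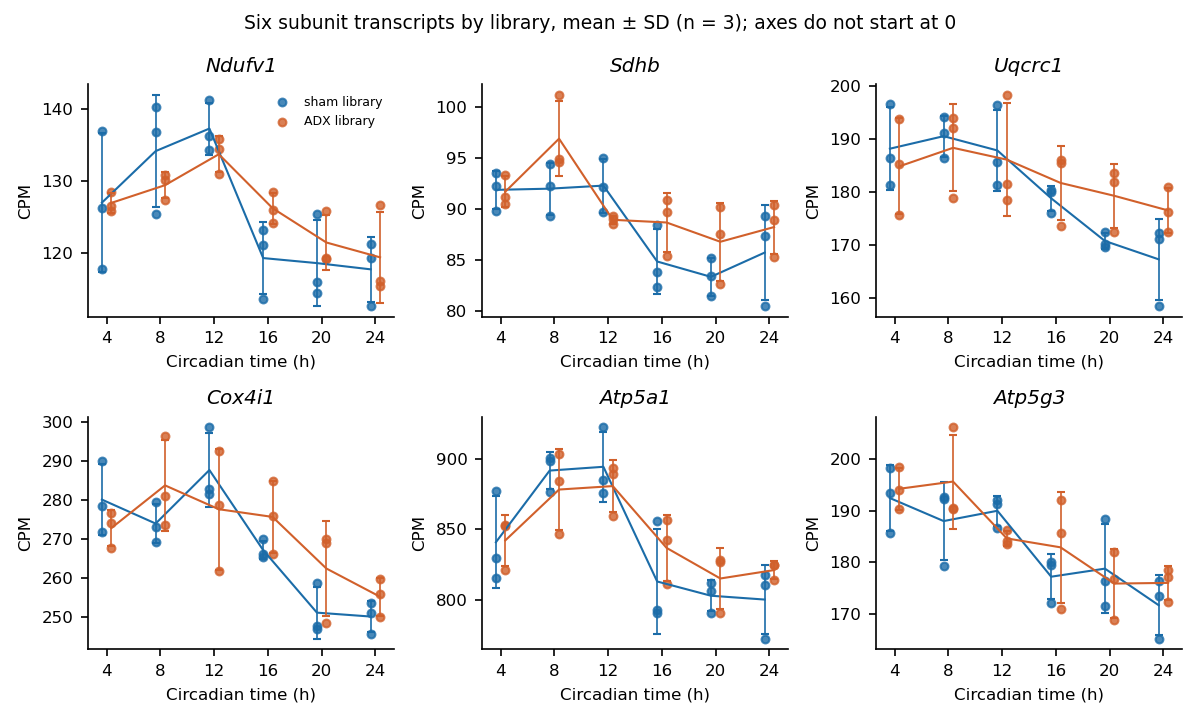
CPM by circadian time of Ndufv1, Sdhb, Uqcrc1, Cox4i1, Atp5a1 and Atp5g3, with 1 point per library, lines through the means of 3 libraries and bars of 1 SD; the vertical axes do not start at 0. In sham and in ADX the values from CT04 to CT12 tend to lie above those at CT20 and CT24.

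Few of the members called for the shared rhythm departed from the daytime peak. Ndufab1, the mitochondrial acyl carrier protein, which also serves fatty acid and lipoate synthesis, peaked at 18.8 h with 0.15 (edgeR adjusted p = 0.0166, kept in all 36 fits without 1 library). Cox6a2 peaked near 19 h with 0.54, the largest value of the 84, and an adjusted p of 0.0445. That call was kept in 14 of 36 such fits, and without ADX CT20 replicate 3 the value was 0.36 and the adjusted p 0.141. Without the 3 libraries of highest muscle score it was 0.37 with an adjusted p of 0.085. Ndufa4l2 peaked at 3.35 h with 0.36 at a mean of 2.245 CPM (adjusted p = 0.041, kept in 23 of 36 fits). Its exons overlap those of Shmt2 on the opposite strand, and no label says whether the counting used strand.

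The 24 h cosine did not capture the whole course. Over the mean of both surgeries, 53 of the 84 members were highest at CT04 (63.1%, beside 14.4% of all genes), 40 were lowest at CT24 (beside 18.7%) and 24 at CT20 (beside 14%). In sham the median deviation of the members from their own means was 0.060 at CT04, 0.016 at CT08, 0.035 at CT12, -0.013 at CT16, -0.035 at CT20 and -0.070 at CT24, on the scale of log2 (CPM + 1). In ADX it was 0.053, 0.046, -0.035, 0.0038, -0.031 and -0.038. Thus the sham values at CT08 were lower than those before and after, and the ADX values at CT12 lay below those before and after. When the 6 times were compared with no assumed shape (a test with 5 degrees of freedom), edgeR called 53 members over both surgeries (63.1%, beside 33.2% of all genes), 31 of them also called with the cosine. It called 22 in sham, beside 16.19% of all genes, and 6 in ADX, beside 9.68%. Uqcrb and Atp5e, for example, passed this test with adjusted p of 0.0234 and 0.0304 but had cosine adjusted p of 0.613 and 0.503. These examples were chosen after their values were seen.

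**Figure D5:**
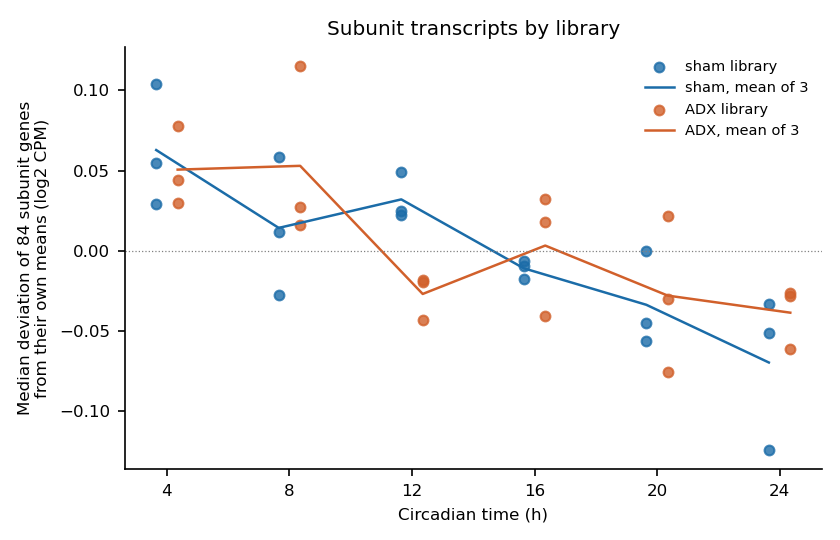
Median deviation of the 84 subunit genes from their own means over 36 libraries (log2 of CPM plus 1), with 1 point per library and lines through the mean of the 3 libraries of a status and time. In both surgeries the line is lower at CT24 than at CT04, the lowest library being sham CT24 replicate 2 at -0.12, and the 3 ADX libraries at CT12 lie below the 3 sham libraries.

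Depth and tissue makeup were set beside this course. Mean library totals were 26539815 counts at CT04 and 26852876 at CT24, the times at which the largest numbers of members were highest and lowest, and 22467634 and 21854367 at CT08 and CT12. Neutrophil precursor markers, 5 genes summed, were 4940 ± 181 CPM at CT04 and 6980 ± 343 CPM at CT24 in sham, and 3380 ± 164 and 5600 ± 756 CPM in ADX (SD, n = 3). Spiral ganglion markers were 1090 ± 88.6 and 970 ± 115 CPM in sham and 1290 ± 71.8 and 1110 ± 55.0 CPM in ADX at the same times. Their part in the members' course was not tested. Of the 5 genes in each of these lists, 0 neutrophil and 2 neuronal markers were called for the shared rhythm.

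No member was called for a difference in rhythm between surgeries: 0 of 84 passed the test, and 0% of all genes did. A test that called no gene does not show that the rhythms were equal. DESeq2 called no member either. At an unadjusted p of 0.05, 1 member passed, against 3.57% of all genes. That was Ndufs4, with a peak-to-trough value of 0.067 ± 0.045 at 9.78 h in sham and 0.20 ± 0.045 at 4.49 h in ADX (unadjusted p = 0.0144, edgeR adjusted p = 1). Of the calls in a single surgery, 8 genes were called in both (Ndufa9, Ndufv1, Ndufv3, Sdhb, Sdhc, Cox4i1, Atp5a1 and Atp5g3), 13 in sham alone and 5 in ADX alone. Since the difference was called for none of them, these counts do not show a gain or a loss of rhythm. The fitted value was smaller in ADX for 52 of the 84, and for 56.8% of all genes.

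Promoter sequences were looked at because so many members moved together. RefSeq's table for GRCm38.p6 held 63 of the 84 members, from 250 bases before to 50 after the start site. The 5 shown are, for each complex, the entry of the member with the smallest p for the shared rhythm among those in the table. Letters in capitals mark exact matches, on either strand, to 7 motifs known from promoters of respiratory genes or from clock output: GCATGCGC for NRF1, CCGGAAGT for ETS factors including GABP, TCAAGGTCA for estrogen-related receptors (ERR), AAGATGGCG for YY1, TGACGTCA for CREB, CACGTG for the E-box bound by CLOCK and BMAL1, and GGGCGGG for SP and KLF factors.
Ndufv1, chr19:4012706-4013005, minus strand: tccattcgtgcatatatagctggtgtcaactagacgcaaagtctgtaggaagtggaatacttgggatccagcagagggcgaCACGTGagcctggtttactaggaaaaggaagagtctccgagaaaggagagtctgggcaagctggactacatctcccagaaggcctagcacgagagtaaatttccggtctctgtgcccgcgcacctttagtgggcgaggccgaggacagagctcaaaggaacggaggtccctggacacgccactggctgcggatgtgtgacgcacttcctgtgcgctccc
Sdhb, chr4:140961021-140961320, plus strand: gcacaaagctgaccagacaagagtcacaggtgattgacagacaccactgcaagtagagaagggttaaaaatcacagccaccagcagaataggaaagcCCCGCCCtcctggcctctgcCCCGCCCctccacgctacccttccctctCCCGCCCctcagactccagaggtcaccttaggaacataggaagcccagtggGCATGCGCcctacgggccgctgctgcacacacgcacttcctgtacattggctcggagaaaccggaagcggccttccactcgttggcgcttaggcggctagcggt
Uqcrc1, chr9:108936398-108936697, plus strand: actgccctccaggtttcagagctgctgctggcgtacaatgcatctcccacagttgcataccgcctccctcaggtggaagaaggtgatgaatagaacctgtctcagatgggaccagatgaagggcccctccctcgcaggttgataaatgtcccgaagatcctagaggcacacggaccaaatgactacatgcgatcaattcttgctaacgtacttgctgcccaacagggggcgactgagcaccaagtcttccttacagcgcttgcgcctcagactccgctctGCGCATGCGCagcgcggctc
Cox7a2l, chr17:83514284-83514583, minus strand: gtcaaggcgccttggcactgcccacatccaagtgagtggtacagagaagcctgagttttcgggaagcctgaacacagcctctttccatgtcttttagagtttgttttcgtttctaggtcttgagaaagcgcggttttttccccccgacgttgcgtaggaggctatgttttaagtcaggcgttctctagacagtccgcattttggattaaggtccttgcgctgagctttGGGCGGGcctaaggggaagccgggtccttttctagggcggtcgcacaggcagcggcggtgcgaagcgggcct
Atp5g3, chr2:73911277-73911576, minus strand: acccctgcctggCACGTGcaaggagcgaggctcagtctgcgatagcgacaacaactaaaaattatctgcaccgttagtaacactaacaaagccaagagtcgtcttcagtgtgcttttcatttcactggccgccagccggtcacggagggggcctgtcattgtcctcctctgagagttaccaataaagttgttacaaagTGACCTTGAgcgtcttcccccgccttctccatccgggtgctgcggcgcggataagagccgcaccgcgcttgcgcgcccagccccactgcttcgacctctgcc

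Ndufv1 held an E-box 169 bases before the start, Sdhb an NRF1 motif at 54 bases before and 3 GC boxes, Uqcrc1 a pair of overlapping NRF1 matches on opposite strands just after the start, Cox7a2l a GC box and Atp5g3 an ERR motif at 52 bases before with an E-box at 238. The NRF1 motif was found in 10 of the 63 member promoters (15.9%) and in 4.11% of 14927 promoters of protein-coding genes of the same length. The YY1 motif was in 5 (7.94% beside 2.25%), the ERR motif in 2, Sdhd and Atp5g3 (3.17% beside 0.322%), CREB's in 4 (6.35% beside 2.63%) and the ETS motif in 5 (7.94% beside 6.0%). The E-box was in 5 (7.94% beside 8.61%) and the GC box in 21 (33.3% beside 38.4%). These shares count promoters of all protein-coding genes, tested or not. Among the 12371 promoters of tested genes they were 4.75% for NRF1, 2.68% for YY1, 0.243% for ERR and 2.95% for CREB. For the ETS motif the share was 7.02%, for the E-box 9.39% and for the GC box 44.7%. Of the 29 matched members called for the shared rhythm, 5 held the NRF1 motif and 3 an E-box, and of the 34 not called, 5 and 2. A match is a description of these letters, and no test was made of it.

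Other lists of energy metabolism are read against the 32.5% of all genes called for the shared rhythm and the 14.3% called with a peak between 4 and 12 h. Of 16 genes of the tricarboxylic acid cycle, 11 were called for the shared rhythm and 10 of these peaked between 4 and 12 h, among them Suclg2, a succinyl-CoA ligase subunit (0.28 at 7.86 h), and Idh2, the mitochondrial NADP-linked isocitrate dehydrogenase (0.25 at 9.83 h). Of 17 glycolysis genes 13 were called and 12 of them peaked in that window, led by Gapdh with 0.20 at 9.78 h. Aldoc, an aldolase, had 0.52 at 12.0 h and Pfkl, a phosphofructokinase, 0.22 at 9.51 h. Of 45 assembly factors 16 were called, a share near that of all genes, 10 of them in that window. Cox15, needed for heme a synthesis, and the complex I factor Foxred1 peaked at 7.01 and 7.2 h, and Ndufaf4, another complex I factor, at 18.2 h. Of 16 carrier and import genes 9 were called, 7 in the window, with Tomm20, an import receptor, at 8.66 h, the channel gene Vdac2 at 8.75 h and the chaperonin Hspd1 at 18.4 h.

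Of 14 regulators of mitochondrial biogenesis, 7 were called, beside the 32.5% of all genes, and 1 peaked between 4 and 12 h, beside the 14.3%: Ppargc1a, the coactivator PGC-1alpha, with 0.25 at 9.55 h. Ppargc1b peaked near 12 h and Gabpa at 22.4 h. Gabpa shares exon sequence on opposite strands with the member Atp5j. Cycs, the mobile carrier cytochrome c, had a value of 0.040 and was not called. In these lists, as in the members, no gene was called between ADX and sham over the mean of the 6 times.

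Of the 13 protein-coding genes of mitochondrial DNA, whose products join the same complexes, 3 were called for the shared rhythm, beside 32.5% of all genes. These were mt-Nd1 (0.22 at 6.44 h), mt-Nd5 (0.17 at 7.78 h) and mt-Cytb (0.11 at 8.29 h). mt-Co1, the catalytic core of complex IV, had 0.060 with an edgeR adjusted p of 0.205. For 6 of the 13 the mean was between 0.1999 and 0.2245 CPM, against 8.032 CPM for mt-Nd6 and at least 1957 CPM for the other 6, so the low genes gave no information. All 3 genes called were among those of at least 1957 CPM, so the share of the 13 cannot be set against that of all genes. The mitochondrial total was between 21520 and 26270 CPM, and at CT12 the 3 sham libraries had 24780 ± 1298 CPM and the 3 ADX libraries 23860 ± 601.3 CPM, with ranges of 23910 to 26270 and 23160 to 24260 CPM that overlapped.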

How the data were processed

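Per the labels' protocols, RNA of the cochlea was made into stranded messenger RNA libraries and sequenced as single reads in pools of 6. STAR 2.4.0i and the build mm10 are named in the submitters' processing notes. Neither the counting program nor its strand setting is named in the labels. The deposited values are whole-number counts per gene, with no normalization by the authors, and 0 value columns were left unmapped. For 30 of 36 columns the name gives a time 1 h before the labelled one, and the labelled times were used. Symbols came from GENCODE M21 (GRCm38), which matched 96.6% of IDs.

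The tests used edgeR 4.0.16 under R 4.3.3, with TMM, filterByExpr, glmQLFit and glmQLFTest. A model of 12 group means gave the comparisons of surgery, and a cosine and a sine of 24 h per status the rhythms. P-values were adjusted over 22556 genes by Benjamini-Hochberg, with a threshold of 0.05. CPM were computed here with TMM library sizes. Replicates of a group differed by more than sampling noise.

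The members, lists, motifs and the rule for named genes were chosen with earlier results of these data known. The rule took the 3 members of smallest p per complex for the shared rhythm, isoform sets, core subunits, the extremes of fold change and of level per kilobase, members nearest the minimum, and up to 3 called genes per other list. Other genes are named as examples after their values were seen. Some genes that the rule took are not reported here. The alternatives tried were DESeq2 (version 1.42.0), its size factors in edgeR, library totals, no filter, the replicate number as a block, a 5-df test of time, the column-name times, removal of the 3 libraries of highest muscle score or the 4 of highest Gh, and each library left out. Figures were drawn with matplotlib 3.10.9.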

Additional observations from a re-analysis of the deposited data

How the results depend on the processing

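The count of 0 members between ADX and sham over the mean of 6 times became 1 (Cox7a2l) with DESeq2 and with library totals only (adjusted p = 0.0443 and 0.0358), and was 0 in all 36 fits that left out 1 library. The counts of 0 at single times and of 0 for the difference in rhythm were 0 in every alternative run. The 21 called in sham became 13 with no filter on low counts, and 14 to 25 in the fits without 1 library. The 13 called in ADX became 5 with library totals only, 3 with no filter, 6 in the 5-df test, and 2 to 14 without 1 library. The 41 called for the shared rhythm lay between 31 and 53 over the other alternatives and between 34 and 45 without 1 library, and 30 of the 41 genes passed in all 36 of those fits. No replicate pairing was found: libraries of the same number had a median correlation of deviations of -0.0013, and with the replicate block the counts were 0 over the mean, 20 in sham, 10 in ADX, 39 shared and 0 for the difference, so no count moved by over 1.5 times. Over all genes, the 162 called between ADX and sham became 630 with DESeq2, and between 21 and 302 without 1 library. The 2120 called in ADX became 1411 with no filter, and at CT20 the 1 gene called became 179 with DESeq2 and 0 to 141 without 1 library. DESeq2 called 73, 9, 18 and 1 genes at CT04, CT12, CT16 and CT24, where edgeR called 0. Of 34 named members, Atp5b, Cox6a2, Cox7a1, Cyc1 and Ndufa4l2 lost the shared rhythm in 12 of their values under the other alternatives. The causes of these shifts were not tested.

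The members of lowest count were least precise: Ndufa4l2, Atp5l, Cox6a2 and Cox4i2 had mean counts between 56.1 and 68.6 per library, and their standard errors were above the median of the members; the part of depth in this was not tested.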
